A study of Mus musculus with 29 samples.

Results

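The hepatocyte genes that sense and move bile acids were followed as a set of 10: Nr1h4 and Nr0b2 (nuclear receptors), Fgfr4 and Klb (the hormone receptor pair), Slc10a1 (uptake from blood), Abcb11, Abcb4 and Abcc2 (export into bile), and Abcc3 and Slc51b (export back to blood). They were taken by Ensembl identifier and symbol from a table of 54532 gene identifiers. All 10 had enough counts to be tested, among 15603 genes in all. They were described in livers of obese male mice that differed in 1 lysine of the transcription factor Prox1 and in feeding state.

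Bile acids are made from cholesterol in hepatocytes, secreted into bile, reabsorbed in the ileum and taken up again by the liver. FXR, the product of Nr1h4, is the nuclear receptor that binds them. It induces SHP, the product of Nr0b2, which represses bile acid synthesis, and it induces the canalicular bile salt pump encoded by Abcb11. A second loop runs through the ileal hormone FGF15, which binds FGFR4 and its co-receptor beta-Klotho (Klb) on hepatocytes. Refeeding after a fast brings bile acids back to the liver.

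The study compared wild-type (WT) mice with mice carrying Prox1 K556R, an allele whose product cannot carry the small protein SUMO at that lysine. The knock-in was conditional and specific to hepatocytes, and Cre recombination switched it on when the males were 8 weeks old. All mice then ate a diet of 45% fat and 20% fructose for 18 weeks. Sampling of the liver, fasted in some mice and refed in others, was at ZT 15 to 17. WT mice gave 8 fasted and 6 refed livers and K556R mice 7 fasted and 8 refed ones, each group split over 2 batches named in the labels. WT titles carry the word Ctrl and K556R titles the word Cre, and the labels do not state whether WT mice received Cre, or how Cre was delivered. Poly-A RNA was sequenced, and each library is counted here as 1 liver, which the labels do not state in words. The labels reuse repeat numbers in both batches and do not say whether these are the same mice, so p-values describe only how far the libraries differ among themselves.

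Libraries held 14385218 to 27278251 counts, with a median of 22106062 in batch 1 and 17331641 in batch 2. Whole-gene Prox1 counts, in counts-per-million (CPM), ranged from 153 to 195 in fasted WT and from 167 to 203 in fasted K556R livers, and from 125 to 184 and 120 to 203 when refed, so that the genotypes overlapped. They do not show which allele was transcribed. The 6 hepatocyte markers summed to between 54592 and 103384 CPM in every library. Among markers of other tissues, the ileal genes Fabp6, Fgf15 and Sis and the adipocyte gene Lep had 0 counts in all 29 libraries. Other members of the same lists were counted. The ileal markers Fabp2 and Slc10a2 averaged 146 and 27.3 CPM, and Vil1 had 165 counts over all libraries together. The adipocyte marker Cfd averaged 6.80 CPM, and Adipoq and Plin1 had 10 and 28 counts over all libraries together. Refed WT replicate 1 of batch 2 and refed K556R replicate 4 of batch 1 lay farthest from the other libraries of their own group and batch (root mean square log2 distance 0.70 and 0.63, against 0.32 to 0.58 for the rest). In bulk liver RNA, fewer cells of a type and less RNA per cell cannot be told apart.

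Per kilobase of exon, the genes spanned more than 2 orders of magnitude, and the uptake transporter stood at the top. Slc10a1 had 247 CPM per kilobase (SD 27.3, n = 8) in fasted WT livers. Abcc2 (82.4, SD 7.41), Abcc3 (78.8, SD 12.0) and Nr1h4 (69.4, SD 3.50) followed within one another's range. Abcb11 (51.8, SD 8.98) and Abcb4 (48.5, SD 3.63) also overlapped, and Nr0b2 came next at 32.6 (SD 15.6). The hormone receptor pair was lower, with Fgfr4 at 9.46 (SD 1.75) and Klb at 4.15 (SD 0.586). Slc51b was barely transcribed at 0.673 (SD 0.399). This order was the same in fasted K556R livers. In refed livers of both genotypes Abcc3 moved from rank 3 to rank 5, behind Nr1h4 and Abcb11: in refed WT livers it stood at 63.2 (SD 6.12) against 65.6 (SD 8.12) for Abcb11, a pair whose ranges overlapped.

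**Figure D1:**
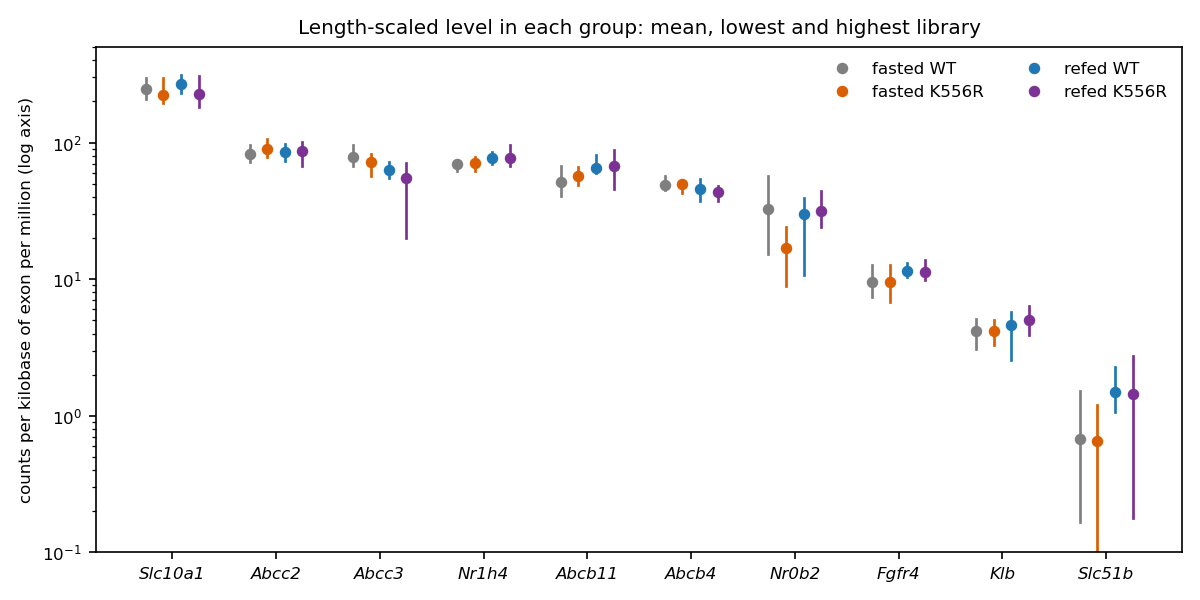
Length-scaled level of the 10 genes on a log axis (CPM per kilobase of exon) in the 4 groups; points are group means and bars run from the lowest to the highest library, and the 1 library of Slc51b at 0 is drawn at the foot of the axis. Slc10a1 stands highest in each group and Slc51b lowest, and Abcc3 is lower in both refed groups.

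Feeding state, averaged over both genotypes, changed 6 of the 10 genes, and genotype changed 0. Refeeding raised Abcb11 1.23-fold, Fgfr4 1.20-fold, Nr1h4 1.10-fold and Slc51b 2.15-fold, and it lowered Abcc3 to 0.775 and Abcb4 to 0.904 of the fasted level (adjusted p from 0.00723 for Abcc3 to 0.0449 for Abcb4, edgeR quasi-likelihood test, Benjamini-Hochberg over all tested genes). A gene is called changed here and below when its adjusted p lies under 0.05. In the same average 25.6% of all genes were called, 12.9% higher and 12.8% lower, so a large part of the transcriptome changed with feeding. This average was added after the values within each genotype had been seen. Of the 6 genes, Abcb11, Fgfr4, Abcc3 and Slc51b were called in every one of the 29 fits with 1 library left out. Nr1h4 and Abcb4 were not, as described below. With a batch fitted alone, Abcb11 and Fgfr4 were lost in batch 2 (adjusted p = 0.568 and 0.647, edgeR). Abcc3 was lost in batch 1 (adjusted p = 0.0733, edgeR), and Slc51b in batch 1 and in batch 2 (adjusted p = 0.110 and 0.0684, edgeR).

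Within a single genotype fewer of the genes were called. In K556R livers refeeding changed 2 of 10, Nr0b2 upward and Abcc3 downward, where 15.4% of all genes were called. In WT livers it changed 0 of 10, where 10.7% of all genes were called, although 5 of the 10 (Nr1h4, Fgfr4, Abcb11, Abcc3 and Slc51b) had an unadjusted p under 0.05, and DESeq2 called 0. The median absolute log2 change of the 10 genes was 0.15 in WT and 0.25 in K556R livers, beside 0.15 and 0.16 over all genes. The test of whether the refeeding response differed between genotypes called 0 of 10 and 0% of all genes by edgeR (440 genes and, among the 10, Nr0b2 at an unadjusted p under 0.05) and 0 genes by DESeq2. The calls in K556R and their absence in WT are therefore not shown to differ.

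Within batches, fasted and refed libraries of a genotype separated without overlap for several of the genes. In batch 1 this held in WT livers for 5 of 10 (Nr1h4, Klb, Abcb11 and Slc51b higher, Abcc3 lower) beside 15.8% of all genes, and in K556R livers for 3 (Fgfr4 and Abcb11 higher, Abcc3 lower) beside 16.1%. In batch 2 it held in WT livers for 1 (Abcb4, lower) beside 14.4%, and in K556R livers for 3 (Nr0b2 and Slc51b higher, Abcb4 lower) beside 28.1%. Within a genotype, 0 of the 10 genes separated in both batches.

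In the genotype comparison 0 of the 10 genes were called when fasted (0.103% of all genes), 0 when refed (0% of all genes, with 1319 at an unadjusted p under 0.05 and 44 called by DESeq2) and 0 in the mean of both states (1.24% of all genes). DESeq2 called 0 of the 10 in each of these. At an unadjusted p under 0.05 there was 1 of the 10 when fasted (Nr0b2), 1 when refed (Slc10a1) and 2 in the mean (both of these). The median absolute log2 difference of the 10 genes was 0.07 when fasted and 0.06 when refed, beside 0.10 and 0.11 over all genes. The comparisons share libraries: fasted K556R livers enter both the fasted genotype difference and the K556R refeeding difference.

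**Figure D2:**
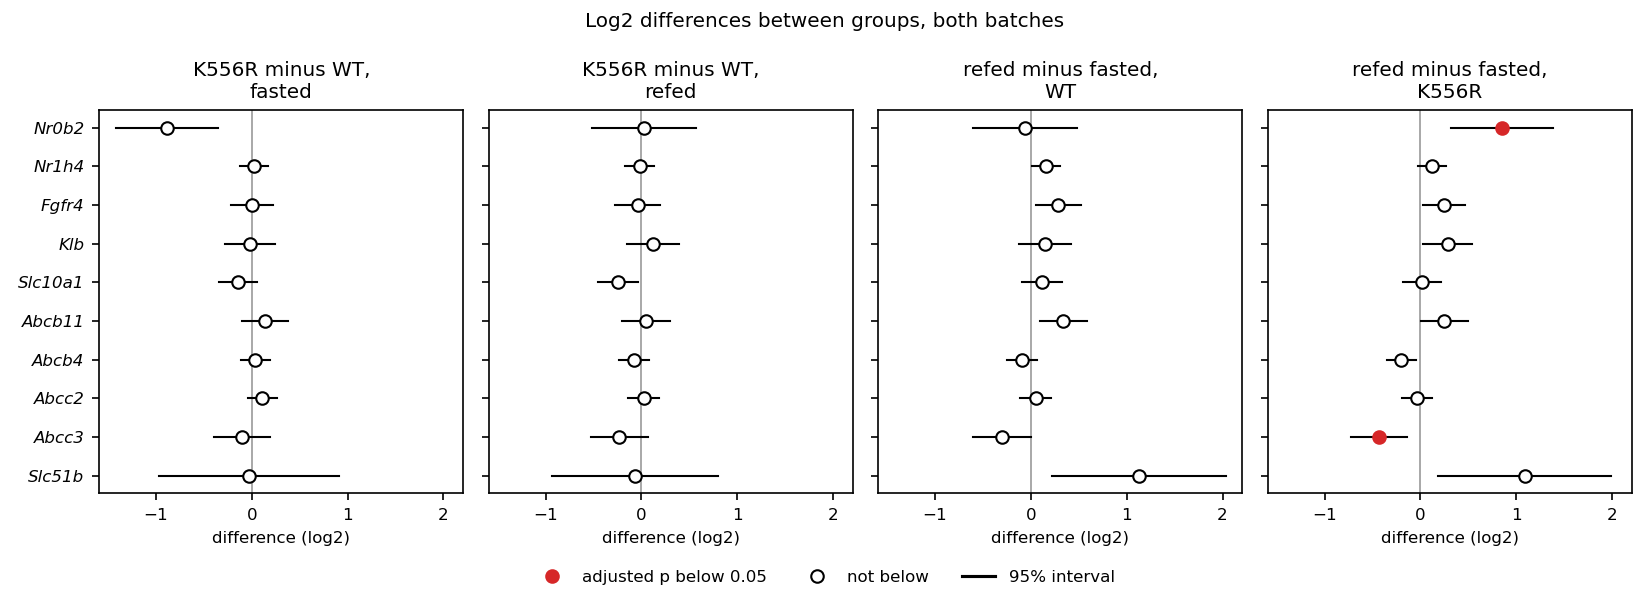
Log2 differences of the 10 genes in 4 comparisons from the fit over both batches; points are estimates, lines are 95% intervals, and filled red points have an adjusted p under 0.05. Filled points are seen for Nr0b2 and Abcc3 in K556R refeeding, and Slc51b has the widest intervals.

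Nr1h4 (ENSMUSG00000047638, GRCm38 chromosome 10, 89454234 to 89533585), the gene of the bile acid sensor FXR, was among the steadier of the set. It ranged from 142 to 167 CPM (median 162) in fasted WT livers and from 142 to 180 (median 169) in fasted K556R livers. Refed WT livers had 161 to 195 (median 178) and refed K556R livers 154 to 221 (median 166). Fasted and refed livers overlapped in each genotype. The genotype difference was log2 0.02 (SE 0.07) when fasted and -0.02 (SE 0.07) when refed, with 95% intervals from -0.12 to 0.17 and from -0.17 to 0.13. Refeeding added 0.16 (SE 0.07) in WT and 0.12 (SE 0.07) in K556R livers, and 0.14 (SE 0.05, adjusted p = 0.0402, edgeR) on average. Within batches that average was 0.16 (SE 0.07) in batch 1 and 0.12 (SE 0.08) in batch 2. With a batch fitted alone the averaged call was lost in batch 1 (adjusted p = 0.163) and in batch 2 (adjusted p = 0.294, edgeR). The averaged call was lost without any 1 of 9 libraries, namely fasted WT batch 2 replicate 3, fasted K556R batch 1 replicate 2 and batch 2 replicate 3, refed WT batch 1 replicates 1 and 3 and batch 2 replicate 2, and refed K556R batch 1 replicates 1 and 4 and batch 2 replicate 2, with adjusted p up to 0.0713 (edgeR). It was also lost with no filter on low counts (adjusted p = 0.0877, edgeR).

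Nr0b2 (ENSMUSG00000037583, chromosome 4, 133553376 to 133556536) encodes SHP, the repressor that FXR induces, and it gave the largest genotype difference of the 10 genes in the fasted state. It ranged from 17.2 to 64.2 CPM (median 33.2) in fasted WT livers and from 10.1 to 27.5 (median 19.2) in fasted K556R livers. Refed WT livers had 12.1 to 44.1 (median 37.2) and refed K556R livers 27.1 to 50.4 (median 33.2). Fasted K556R livers thus had the lowest median and overlapped each of the other groups.

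The fasted genotype difference of Nr0b2 was log2 -0.89 (SE 0.26, 95% interval -1.42 to -0.35), or 0.541 of the WT level, and it did not pass correction (adjusted p = 0.214, edgeR). In batch 2 the 4 fasted WT livers had 27.8, 37.5, 60.0 and 64.2 CPM and the 3 fasted K556R livers 19.1, 19.2 and 19.7, with no overlap. Groups failed to overlap in that batch for 7.58% of all genes. In batch 1 the 4 WT livers had 17.2, 17.9, 28.98 and 41.6 CPM and the 4 K556R livers 10.1, 14.7, 24.4 and 27.5, which overlapped. The difference was -0.47 (SE 0.32) in batch 1 and -1.29 (SE 0.36) in batch 2, and the 2 batches did not differ past correction (adjusted p = 0.933, edgeR). When refed the difference was 0.03 (SE 0.27).

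Refeeding raised Nr0b2 in K556R livers by log2 0.85 (SE 0.26, adjusted p = 0.0233, edgeR), a 1.80-fold rise, with 0.69 (SE 0.32) in batch 1 and 1.05 (SE 0.36) in batch 2. In batch 2 all 4 refed K556R livers (29.6 to 50.4 CPM) lay above all 3 fasted ones, and in batch 1 the groups overlapped, at 27.1 to 37.9 against 10.1 to 27.5 CPM. Without fasted K556R replicate 4 of batch 1, the lowest of all at 10.1 CPM, the rise was 0.75 (adjusted p = 0.0532) and was no longer called. With a batch fitted alone the K556R call was lost in batch 1 (0.70, adjusted p = 0.152) and in batch 2 (1.03, adjusted p = 0.0596, edgeR). WT livers gave -0.06 (SE 0.27) over both batches, from 0.58 (SE 0.34) in batch 1 and -0.73 (SE 0.35) in batch 2. Refed WT replicate 1 of batch 2, at 12.1 CPM, stood below the other refed WT livers at 33.1 to 44.1. Averaged over genotypes the change was 0.39 (SE 0.18, adjusted p = 0.119), and it was called at 0.49 (adjusted p = 0.0223, edgeR) without that library. The genotype difference in the refeeding response was 0.91 (SE 0.38, unadjusted p = 0.0212, adjusted p = 1.00, edgeR), from 0.11 in batch 1 and 1.79 in batch 2.

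**Figure D3:**
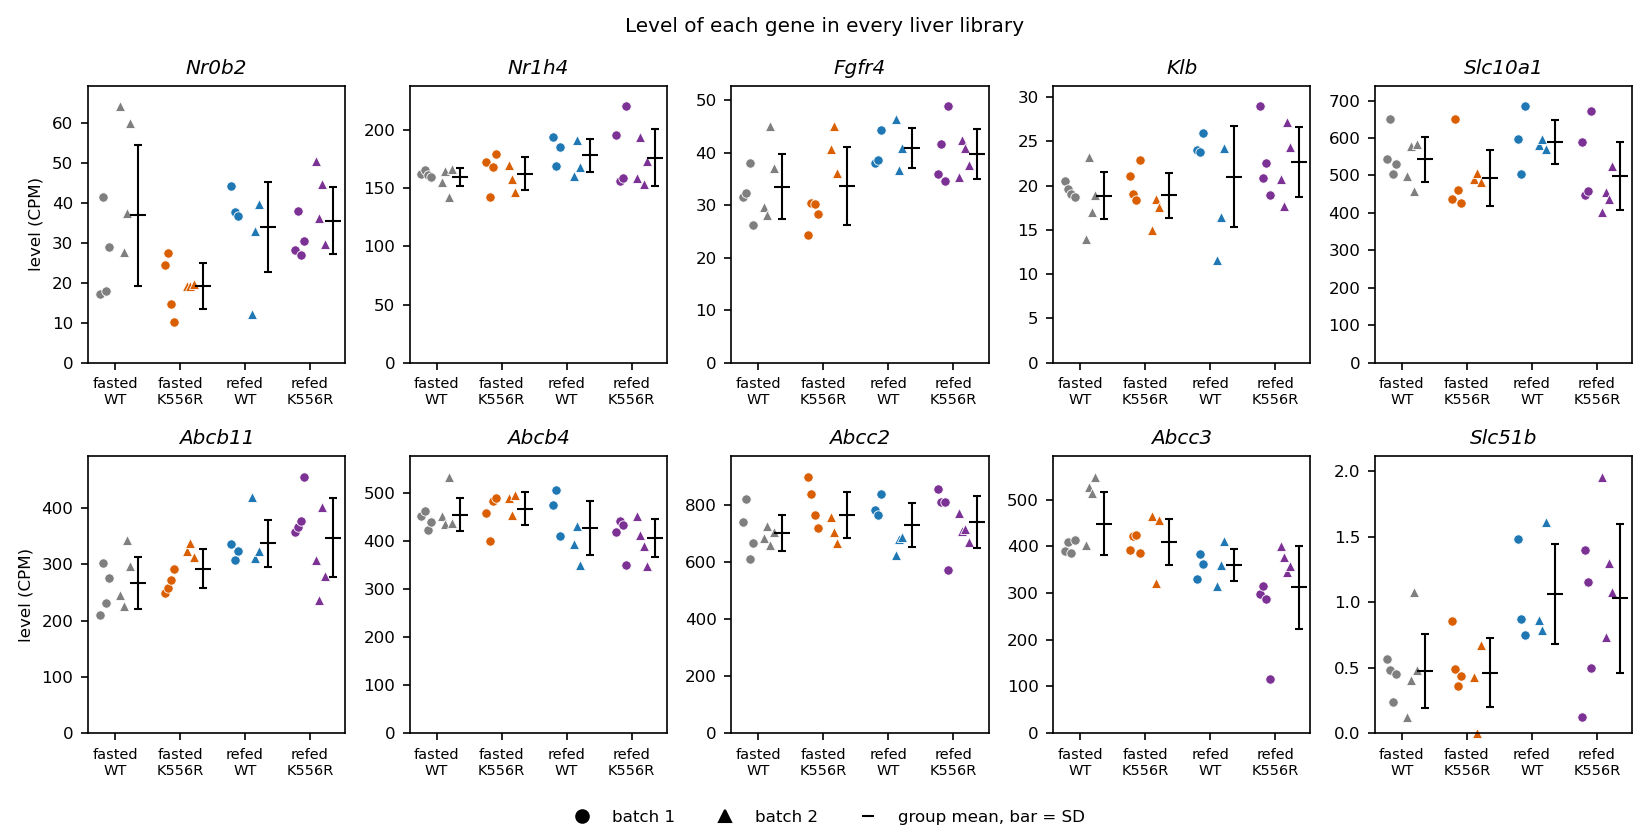
Level of each gene (CPM, linear axes from 0) in all 29 libraries, by group, with circles for batch 1 and triangles for batch 2; dashes and bars are group means and SD. Fasted K556R livers lie between 10.1 and 27.5 CPM for Nr0b2, and 1 refed K556R liver of batch 1 lies at 115 CPM for Abcc3.

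Fgfr4 (ENSMUSG00000005320, chromosome 13, 55152640 to 55168759), the receptor for FGF15, was higher after refeeding. It ranged from 26.3 to 45.0 CPM (median 31.9) in fasted WT and from 24.3 to 45.1 (median 30.4) in fasted K556R livers. Refed livers had 36.8 to 46.4 (median 39.7) in WT and 34.6 to 48.8 (median 39.2) in K556R. The averaged rise was log2 0.27 (SE 0.08, adjusted p = 0.0118, edgeR), from 0.29 (SE 0.11, adjusted p = 0.109) in WT livers (called at 0.35, adjusted p = 0.0401, without fasted WT replicate 3 of batch 2) and 0.24 (SE 0.11, adjusted p = 0.134) in K556R livers (called at 0.32, adjusted p = 0.0474, without fasted K556R replicate 2 of batch 2). Within batches the average was 0.42 (SE 0.10) in batch 1 and 0.09 (SE 0.10) in batch 2, a gap of -0.33 (SE 0.14, unadjusted p = 0.0288, adjusted p = 0.209, edgeR). In batch 2 alone the averaged call of Fgfr4 was lost (0.08, adjusted p = 0.647, edgeR). The genotypes differed by 0.0021 (SE 0.11, 95% interval -0.22 to 0.23) when fasted and by -0.04 (SE 0.11, 95% interval -0.27 to 0.19) when refed.

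In K556R livers Fgfr4 gave unlike values in the 2 batches. In batch 1 the 4 refed livers (34.6 to 48.8 CPM) lay above the 4 fasted ones (24.3 to 30.4), a rise of 0.51 (SE 0.13, adjusted p = 0.0136, edgeR with each batch given its own group means, where 9.88% of all genes were called). In batch 2 refed livers had 35.4 to 42.4 CPM and fasted ones 36.1 to 45.1, a difference of -0.06 (SE 0.14). The gap between batches was -0.56 (SE 0.20) and did not pass correction (adjusted p = 0.104, edgeR, where 3.54% of all genes were called). The plot of refeeding differences by batch shows the same split for Abcb11.

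Klb (ENSMUSG00000029195, chromosome 5, 65348314 to 65384007) encodes the co-receptor beta-Klotho. It ranged from 13.9 to 23.2 CPM (median 19.0) in fasted WT and from 15.0 to 22.9 (median 18.5) in fasted K556R livers, and from 11.6 to 26.0 (median 23.9) and 17.7 to 28.96 (median 21.7) when refed. Groups overlapped throughout except in batch 1 of WT, where 3 refed livers at 23.8 to 26.0 lay above 4 fasted ones at 18.7 to 20.5. The refeeding difference was log2 0.15 (SE 0.13) in WT and 0.28 (SE 0.13, adjusted p = 0.138, edgeR) in K556R livers. The average, 0.22 (SE 0.09, adjusted p = 0.0832), was called at 0.27 (adjusted p = 0.0107) without refed WT replicate 1 of batch 2, the lowest library at 11.6 CPM, and also without refed K556R batch 1 replicate 4 (0.24, adjusted p = 0.0474) or fasted WT batch 2 replicate 2 (0.25, adjusted p = 0.0413, edgeR).

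**Figure D4:**
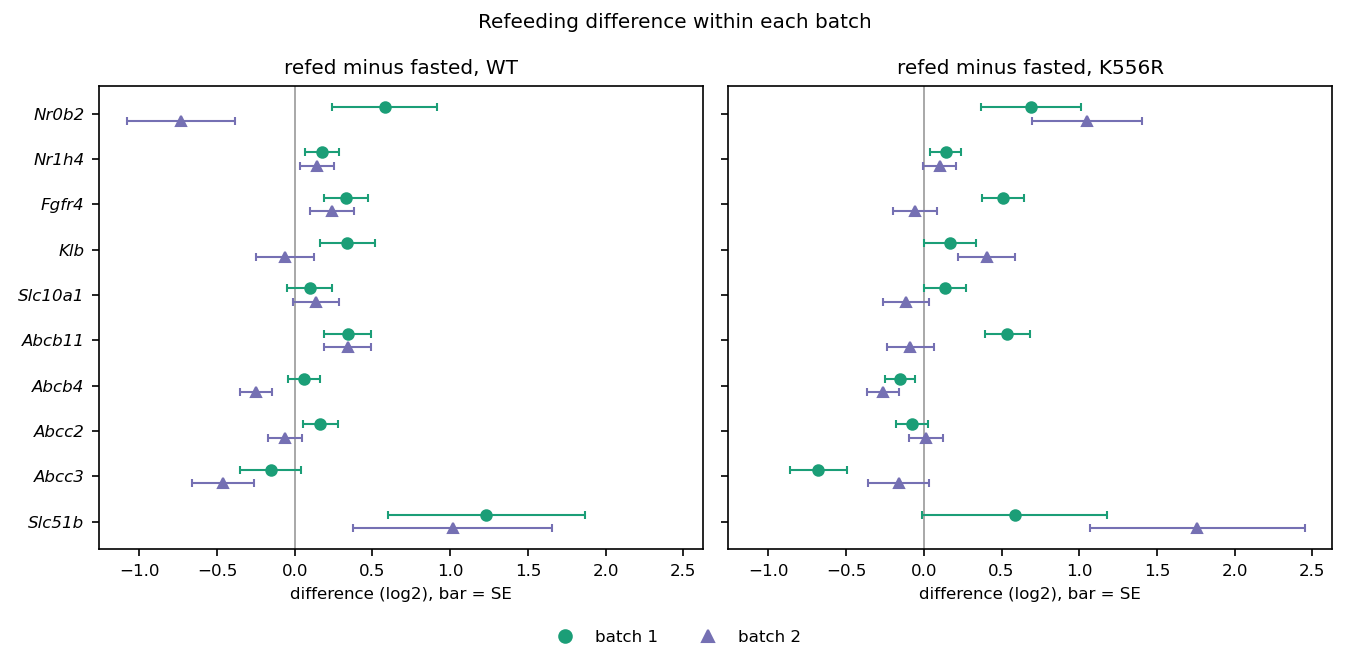
Refed minus fasted difference (log2) of the 10 genes within batch 1 (circles) and batch 2 (triangles), for WT and K556R livers; bars are standard errors. In K556R livers Fgfr4 and Abcb11 stand at 0.51 and 0.54 in batch 1 and at -0.06 and -0.09 in batch 2.

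Slc10a1 (ENSMUSG00000021135, chromosome 12, 80953183 to 80968705) encodes NTCP, the sodium-dependent carrier that takes up most conjugated bile acids from blood. It ranged from 459 to 651 CPM (median 537) in fasted WT and from 427 to 650 (median 483) in fasted K556R livers. Refed livers had 504 to 684 (median 588) in WT and 402 to 673 (median 457) in K556R. K556R medians were lower in both states, and the groups overlapped over both batches. The difference was log2 -0.14 (SE 0.10) when fasted, -0.24 (SE 0.10, unadjusted p = 0.0248, adjusted p = 0.505) when refed and -0.19 (SE 0.07, adjusted p = 0.180, edgeR) in the mean of both. It kept its sign in both batches (-0.16 and -0.23 for the mean). In batch 2 the 4 refed K556R livers at 402 to 526.2 CPM lay below the 3 refed WT ones at 570 to 596, and in batch 1 they overlapped, at 447 to 673 against 504 to 684. Of all genes 10.9% failed to overlap in that batch and state. Refeeding moved Slc10a1 by 0.12 (SE 0.10) in WT and 0.02 (SE 0.10) in K556R livers, with 95% intervals from -0.09 to 0.33 and from -0.18 to 0.22.

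Abcb11 (ENSMUSG00000027048, chromosome 2, 69238282 to 69342616) encodes BSEP, the pump that moves bile salts into the canaliculus. It ranged from 210 to 344 CPM (median 261) in fasted WT and from 249 to 338 (median 292) in fasted K556R livers. Refed WT livers had 308 to 420 (median 324) and refed K556R livers 236 to 456 (median 362). Refed livers were thus higher on the whole, and each genotype overlapped between states over both batches.

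Averaged over genotypes, refeeding raised Abcb11 by log2 0.30 (SE 0.08, adjusted p = 0.00969, edgeR). Within batches this average was 0.44 (SE 0.10) in batch 1 and 0.13 (SE 0.11) in batch 2, a gap of -0.31 (SE 0.15, unadjusted p = 0.0483, adjusted p = 0.265, edgeR). In batch 2 alone the averaged call was lost (0.11, adjusted p = 0.568, edgeR). In WT livers the rise was 0.34 (SE 0.12, adjusted p = 0.0727), the same 0.34 in each batch. In batch 1 the 3 refed WT livers (308 to 337 CPM) lay above the 4 fasted ones (210 to 303). Giving each batch its own group means brought the WT rise past the threshold (adjusted p = 0.0374), as did leaving out fasted WT replicate 3 of batch 2 (0.41, adjusted p = 0.0291), refed K556R replicate 4 of batch 1 (0.34, adjusted p = 0.0489) or refed K556R replicate 2 of batch 2 (0.35, adjusted p = 0.0407, edgeR).

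In K556R livers the rise of Abcb11 was 0.25 (SE 0.12, adjusted p = 0.161, edgeR) over both batches, and it was called without refed K556R replicate 2 of batch 2 (0.33, adjusted p = 0.0454, edgeR). In batch 1 all 4 refed livers (358 to 456 CPM) lay above the 4 fasted ones (249 to 292), a difference of 0.54 (SE 0.14, adjusted p = 0.0142). In batch 2 the 4 refed livers (236, 279, 308 and 403) spread around the 3 fasted ones (314 to 338), a difference of -0.09 (SE 0.15). The gap between batches was -0.62 (SE 0.21, adjusted p = 0.0917). The genotype difference was 0.14 (SE 0.12) when fasted and 0.05 (SE 0.12) when refed. Across the 29 libraries, with the mean of each batch removed, Abcb11 and Fgfr4 correlated at r = 0.66, and with the mean of each group and batch removed at r = 0.43, as a description of libraries that share their scaling.

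The bases just before the start of Abcb11 hold an inverted repeat of the nuclear receptor core AGGTCA spaced by 1 base (AGGTCANTGACCT), the textbook element for FXR with its partner RXR. Promoters of Abcb11, Nr0b2 and Slc51b are shown because these are well known FXR targets that were called higher in at least 1 refeeding comparison above. Abcb4, which was called lower, is not shown, and its window held none of the motifs searched. Each is the 250 bases before the RefSeq start (GRCm38.p6), 5′ to 3′ on the strand of the gene, with matches to the receptor motifs in capitals. Coordinates are chr2:69342617-69342866 on the minus strand for Abcb11, chr4:133553126-133553375 on the plus strand for Nr0b2 and chr9:65422774-65423023 on the minus strand for Slc51b.
Abcb11: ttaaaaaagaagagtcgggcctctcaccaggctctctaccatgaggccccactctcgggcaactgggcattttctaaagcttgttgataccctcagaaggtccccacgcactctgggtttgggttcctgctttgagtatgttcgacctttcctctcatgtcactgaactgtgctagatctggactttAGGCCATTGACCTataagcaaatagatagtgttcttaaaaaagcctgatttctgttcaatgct
Nr0b2: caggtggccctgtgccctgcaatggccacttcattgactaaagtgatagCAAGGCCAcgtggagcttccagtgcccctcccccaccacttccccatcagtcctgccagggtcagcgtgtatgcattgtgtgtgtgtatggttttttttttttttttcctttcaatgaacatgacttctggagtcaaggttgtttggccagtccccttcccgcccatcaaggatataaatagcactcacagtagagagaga
Slc51b: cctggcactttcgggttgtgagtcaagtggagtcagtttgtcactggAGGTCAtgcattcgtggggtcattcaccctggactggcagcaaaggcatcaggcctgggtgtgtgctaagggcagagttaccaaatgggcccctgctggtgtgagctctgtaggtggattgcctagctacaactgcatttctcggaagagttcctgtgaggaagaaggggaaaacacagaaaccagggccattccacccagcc
In Abcb11 the capitals mark the repeat AGGCCATTGACCT, 63 to 51 bases before the start, with 1 mismatch. Up to 1 mismatch, the repeat was found in 26 of 32851 mouse promoter windows (0.0791%) on either strand. In Nr0b2 the capitals mark CAAGGCCA, 201 to 194 bases before the start, a match to CAAGGNCA, the extended core bound by orphan receptors such as LRH-1, which 5.53% of windows hold. In Slc51b they mark a single core, AGGTCA, 203 to 198 bases before the start. Both strands were searched, and the core overlaps the repeat. TATAAA was searched too and is left in lower case; it lies 28 to 23 bases before the start of Nr0b2 and is held by 12.4% of windows.

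RefSeq windows matched 9 of the 10 genes, with 2 windows for Slc10a1 and none for Abcc3. The single core was present before 5 of them (Abcb11 within its repeat, Slc51b, Nr1h4, Slc10a1 and Abcc2), beside 14% of all windows. The inverted repeat was present before 1 of them, and a direct repeat with the same spacing (AGGTCANAGGTCA, up to 1 mismatch, 0.484% of windows) before 0. These are matches of letters in a 250-base window, not measured binding sites.

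Abcb4 (ENSMUSG00000042476, chromosome 5, 8893717 to 8959231) encodes the floppase that brings phosphatidylcholine into bile. Averaged over genotypes it fell on refeeding, where Abcb11 rose, but mostly in different batches. Abcb4 gave -0.05 in batch 1 and -0.25 in batch 2, and Abcb11 0.44 and 0.13. The 2 genes correlated at r = -0.20 with batch means removed and 0.06 with group and batch means removed, as a description. Abcb4 ranged from 424 to 534 CPM (median 447) in fasted WT and from 399 to 497 (median 484) in fasted K556R livers. Refed livers had 350 to 507 (median 421) in WT and 349 to 452 (median 416) in K556R. In batch 2 refed livers lay below fasted ones in both genotypes, at 350 to 431 against 436 to 534 CPM in WT and 349 to 452 against 455 to 497 in K556R. In batch 1 they overlapped. Groups failed to overlap in batch 2 for 14.4% of all genes in WT and 28.1% in K556R.

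The refeeding difference of Abcb4 was log2 -0.09 (SE 0.08) in WT and -0.20 (SE 0.07, adjusted p = 0.0644 by edgeR, 0.0430 by DESeq2) in K556R livers. Its average was -0.15 (SE 0.05, adjusted p = 0.0449, edgeR), made up of -0.05 (SE 0.07) in batch 1 and -0.25 (SE 0.07) in batch 2. That call passed in 8 of the 29 fits with 1 library left out, with adjusted p between 0.0186 and 0.108, and it was lost without any 1 library other than fasted WT batch 1 replicate 3 or batch 2 replicate 2, fasted K556R batch 1 replicate 2, refed WT batch 1 replicates 1 or 2, and refed K556R batch 1 replicates 2 or 3 or batch 2 replicate 1. With no filter on low counts it was lost as well (adjusted p = 0.101, edgeR). The genotype difference was 0.04 (SE 0.07, 95% interval -0.11 to 0.19) when fasted and -0.07 (SE 0.08, 95% interval -0.23 to 0.08) when refed. With the mean of each group and batch removed, Abcb4 and Slc10a1 gave the most negative correlation among the 10 genes (r = -0.71 over 29 libraries, a description).

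Abcc2 (ENSMUSG00000025194, chromosome 19, 43782192 to 43840740), the canalicular exporter of bilirubin and drug conjugates, held its level. It ranged from 610 to 821 CPM (median 696) in fasted WT and from 667 to 899 (median 757) in fasted K556R livers, and from 626 to 839 (median 729) and 573 to 859 (median 746) when refed. All groups overlapped in both batches. Refeeding moved it by log2 0.05 (SE 0.08, 95% interval -0.11 to 0.21) in WT and -0.04 (SE 0.08, 95% interval -0.19 to 0.12) in K556R livers. Genotype moved it by 0.11 (SE 0.08, 95% interval -0.04 to 0.26) when fasted and 0.02 (SE 0.08, 95% interval -0.14 to 0.18) when refed.

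Abcc3 (ENSMUSG00000020865, chromosome 11, 94343295 to 94392997) encodes a basolateral exporter that returns conjugates to blood, and it fell on refeeding. It ranged from 385 to 549 CPM (median 412) in fasted WT and from 322 to 465.8 (median 422) in fasted K556R livers. Refed WT livers had 314 to 411 (median 361) and refed K556R livers 115 to 402 (median 330). Averaged over genotypes the fall was log2 -0.37 (SE 0.10, adjusted p = 0.00723, edgeR), with -0.42 (SE 0.14) in batch 1 and -0.31 (SE 0.14) in batch 2. It was -0.43 (SE 0.14, adjusted p = 0.0349) in K556R and -0.30 (SE 0.15, adjusted p = 0.211) in WT livers.

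In batch 1 Abcc3 was lower in refed than in fasted livers of both genotypes, at 331 to 384 against 385 to 414 CPM in WT and 115, 287, 297 and 315 against 386 to 424 in K556R. Groups failed to overlap there for 15.8% of all genes in WT and 16.1% in K556R. In batch 2 they overlapped, at 314 to 411 against 403 to 549 in WT and 346 to 402 against 322 to 465.8 in K556R. Refed K556R replicate 4 of batch 1, at 115 CPM, was the lowest of all libraries. Without it both genotypes were called and gave like values, -0.31 (SE 0.09, adjusted p = 0.0166) in WT and -0.30 (SE 0.09, adjusted p = 0.0143, edgeR) in K556R livers. With all libraries, the K556R call was lost in batch 2 alone (-0.18, adjusted p = 0.419) and without any 1 of 6 of the 7 fasted K556R libraries (replicates 1 to 4 of batch 1 and replicates 1 and 3 of batch 2, adjusted p 0.0502 to 0.0682, edgeR).

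The genotype difference of Abcc3 was log2 -0.10 (SE 0.14) when fasted and -0.23 (SE 0.15, adjusted p = 0.694, edgeR) when refed. In batch 1 all 4 refed K556R livers lay below the 3 refed WT livers, a difference of -0.50 (SE 0.20), and in batch 2 the difference was 0.04 (SE 0.20). Abcb11 separated the other way in the same livers, with K556R at 358 to 456 CPM above WT at 308 to 337. Of all genes 8.07% failed to overlap in that batch and state.

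Slc51b (ENSMUSG00000053862, chromosome 9, 65412714 to 65422955) encodes a subunit of the basolateral organic solute transporter OST and is known as a strongly induced FXR target. It was close to the limit of detection, with 0 to 34 counts per library. Fasted WT livers had 2 to 25 counts (median 10) and fasted K556R livers 0 to 19 (median 10). Refed WT livers had 12 to 31 counts (median 20.5) and refed K556R livers 3 to 34 (median 23). The library with 0 counts was fasted K556R replicate 2 of batch 2, where a count of 0 allows up to 0.169 CPM. Its partner subunit Slc51a, with 0 to 13 counts per library, did not pass the filter on low counts.

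Scaled to depth, fasted livers averaged 0.477 CPM of Slc51b (SD 0.283) in WT mice and 0.462 (SD 0.266) in K556R mice. Refed livers averaged 1.06 (SD 0.382) and 1.03 (SD 0.570). The refeeding difference was log2 1.13 (SE 0.44, adjusted p = 0.109) in WT and 1.09 (SE 0.44, adjusted p = 0.0978) in K556R livers, and 1.11 (SE 0.31, adjusted p = 0.00849, edgeR) on average, with 0.91 (SE 0.43) in batch 1 and 1.39 (SE 0.47) in batch 2. WT refed livers lay above fasted ones in batch 1 and K556R ones in batch 2, and the other 2 comparisons overlapped. The WT value was called without fasted WT replicate 3 of batch 2 (1.40, adjusted p = 0.0463) and the K556R value without refed K556R replicate 1 of batch 1 (1.29, adjusted p = 0.0281, edgeR). Genotype differences were -0.03 (SE 0.46) when fasted and -0.07 (SE 0.42) when refed, with intervals wide enough to hold a change of 0.91 or -0.97 when fasted. Slc51b and Abcc3 are also active in bile duct cells. The 9 markers of these cells summed to 57.0 to 179 CPM in fasted WT and 51.5 to 133 in fasted K556R livers. Refed livers had 43.8 to 128 in WT and 60.7 to 178 in K556R, and Spp1 alone averaged 86.2 CPM over all libraries. Of the 8 tested markers 0 were called in any of the 7 comparisons, where 0% to 25.6% of all genes were called. The median log2 difference of those markers was -0.24 for refeeding in WT (0 of 8 positive) and 0.35 in K556R livers (7 of 8 positive). For K556R minus WT it was 0.11 when fasted (6 of 8 positive) and 0.55 when refed (8 of 8 positive). For the genotype difference in the refeeding response it was 0.63 (8 of 8 positive). The part of these cells in either result was not tested.

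Some counts may be shared with overlapping genes, because the strand setting of the counting is not given. A gene on the other strand of Slc51b held 97 counts in all libraries together, and 2 on the other strand of Abcb11 held 387. A gene on the same strand as Abcb4 held 336.

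Of the markers of liver zones, 2 of 6 periportal ones fell in each genotype on refeeding, and of the 6 pericentral ones 0 were called in WT and 1 fell in K556R livers. Of all genes 10.7% were called in WT and 15.4% in K556R livers, either direction. The 6 periportal markers summed to 3698 to 6277 CPM in fasted WT and 3865 to 5592 in fasted K556R livers. Refed livers had 2644 to 3328 in WT and 2326 to 3172 in K556R, with no overlap between states over both batches together. Pck1 alone averaged 1707 CPM over all libraries, the most of the 6, so these sums lean on that gene. The median log2 change of the 6 was -0.20 in WT and -0.05 in K556R livers, where 3 of the 6 were positive. The called ones were the gluconeogenic gene Pck1 (log2 -1.53, SE 0.21, in WT and -1.65, SE 0.19, in K556R) and the serine dehydratase gene Sds (-1.53, SE 0.28, and -1.11, SE 0.26), both of which are known to fall with feeding. The 6 pericentral markers summed to 7224 to 13937 CPM in fasted WT, 7537 to 12274 in fasted K556R, 6903 to 12293 in refed WT and 6400 to 8830 in refed K556R livers. Of them Cyp2e1 was called in K556R refeeding (-0.55, SE 0.13). In the average over genotypes, where 25.6% of all genes were called, Cyp2e1 fell (-0.37, SE 0.09) and Lgr5 rose (0.76, SE 0.20). The part of zonation in the refeeding values above was not tested.

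Of 16 other genes of bile acid transport tested for refeeding, 2 were higher and 1 lower in WT livers, where 10.7% of all genes were called. In K556R livers 1 was higher and 1 lower, where 15.4% of all genes were called. Atp8b1, a canalicular lipid flippase, rose by log2 0.33 (SE 0.10) in WT and 0.45 (SE 0.10) in K556R livers. Abcg8, a subunit of the cholesterol exporter into bile, fell by 0.48 (SE 0.13) and 0.55 (SE 0.12). Slc10a2, the ileal and biliary bile acid carrier, rose by 0.59 (SE 0.20) in WT livers. Of 10 tested genes that anchor or traffic canalicular proteins, 1 rose in WT and 3 in K556R livers (all genes 10.7% and 15.4%, either direction), among them the scaffold genes Pdzk1 (0.26, SE 0.06, and 0.22, SE 0.06) and Slc9a3r1 (0.30, SE 0.08, in K556R). The lists of other genes were drawn up with results of these data known.

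Of 25 tested receptors and regulators around FXR, 3 were higher and 5 lower in WT livers, and 2 higher and 7 lower in K556R livers, where 10.7% and 15.4% of all genes were called, with a list median of -0.07 and -0.13 beside 0.0013 and 0.0089 over all genes. Cebpb fell by 1.35 (SE 0.14) and 1.18 (SE 0.14), the fatty acid sensor gene Ppara by 0.67 (SE 0.11) and 0.84 (SE 0.11), and Rxra, which encodes the partner of FXR, by 0.35 (SE 0.06) in K556R livers. Among 9 other FXR targets tested, 1 rose and 1 fell in WT, and 1 rose and 2 fell in K556R livers (all genes 10.7% and 15.4%). This list mixes directions of control: it includes Cyp7a1 and Cyp8b1, genes of bile acid synthesis, which SHP represses. Both are counted again among the synthesis genes below. Sdc1 rose by 0.33 (SE 0.09) and 0.53 (SE 0.09), and the insulin receptor gene Insr fell by 0.31 (SE 0.08) and 0.40 (SE 0.08).

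Of 16 tested genes of bile acid synthesis and conjugation, 0 rose in either genotype, 1 fell in WT livers (all genes 10.7%) and 3 fell in K556R livers (all genes 15.4%). In the average over genotypes 2 rose and 4 fell (all genes 25.6%). Those that fell in K556R livers included Cyp27a1, the sterol hydroxylase of the alternative pathway (-0.43, SE 0.08). Cyp7a1, the rate-limiting enzyme that SHP represses, stood at 97.1 CPM (SD 25.4) in WT and 125 (SD 25.9) in K556R livers when fasted, and at 142 (SD 38.9) and 122 (SD 48.1) when refed. Its refeeding difference in WT was 0.55 (SE 0.21, adjusted p = 0.0961, edgeR) and its fasted genotype difference 0.38 (SE 0.20, adjusted p = 0.565, edgeR). Of 7 detoxification genes, 0 were called in WT (all genes 10.7%) and 1, Cyp2b10, in K556R refeeding (-2.56, SE 0.67, all genes 15.4%). In the average over genotypes 3 of the 7 were lower (all genes 25.6%, either direction). Between genotypes the 6 lists gave 1 call over the 3 comparisons, Cebpb at -0.43 (SE 0.10, adjusted p = 0.0222, edgeR) in the mean of both states. Of all genes 0.103% were called when fasted, 0% when refed and 1.24% in that mean.

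Each gene of the set had its own nearest neighbours among all tested genes, by Pearson correlation over the 29 libraries with the mean of each batch removed, a description in which feeding, genotype and scaling are shared. Abcc3 was closest to Gal3st1 (r = 0.91), Ildr2 (0.90) and the lipid droplet gene Plin4 (0.89). Abcb11 was closest to Zfc3h1 (0.88), Tirap (0.85) and S1pr1 (0.84), and Fgfr4 to Mogs (0.87), Esrp2 (0.84) and Pknox1 (0.83). Nr0b2 had looser neighbours in Stap1 (0.73), Hjurp (0.70) and Spred1 (0.70), and Nr1h4 in Tmem39a (0.73), Rars (0.73) and Atf4 (0.72). For Slc10a1 they were Gstz1, Ndufb9 and Apoh (0.79 to 0.78), for Abcb4 Phospho1 (0.81), Prrc2b (0.75) and Stk24 (0.74), and for Abcc2 Chd1, Tmem185a and Entpd5 (0.75 each). Klb was closest to Mtmr12 (0.79), Dennd3 (0.74) and Tecpr2 (0.73), and Slc51b to Gimd1 (0.79), Ptk2 (0.74) and Col4a3bp (0.72). None of the 10 genes was among the nearest 3 of another.

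Spread within groups also differed between the genes. With group and batch means removed, the SD of log2 CPM was 0.13 for Abcb4 and 0.14 for Nr1h4, at the 19.4 and 23.4 percentile of all tested genes. It was 0.52 for Nr0b2 (percentile 81.9) and 0.87 for Slc51b (percentile 98.1), whose few counts add counting error. Within groups and batches Abcc2 and Abcc3 gave the highest correlation among the 10 genes (r = 0.68). Abcc3 correlated at -0.45 with Nr1h4 on the same scale. Refed K556R replicate 4 of batch 1 held the lowest Abcc3 (115 CPM) and Abcc2 (573 CPM) of its group. It also held the highest Nr1h4 (221 CPM) of that group. The share of this 1 library in these correlations was not tested.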

How the data were processed

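The authors' deposited table gives unnormalised whole-number counts of 29 libraries. Tools named, per the submitters' processing notes, include STAR, STAR-Fusion, TopHat, HTSeq, edgeR and DESeq2, with build mm10. The annotation release and strand setting are not given in the sources used here. Symbols, positions and exon lengths came from GENCODE M21 (GRCm38), which matched 54495 of 54532 identifiers.

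edgeR 4.0.16 in R 4.3.3 kept 15603 genes by filterByExpr (minimum count 10, minimum total 15), holding 99.92% of counts. Libraries were scaled by TMM and fitted by quasi-likelihood with 1 mean per group and a batch term. p-values were adjusted by Benjamini-Hochberg over all tested genes of each of 6 planned comparisons and 1 added later. Values within a batch come from a fit with separate group means in each batch. DESeq2 1.42.0 was an alternative. Log2 CPM uses a prior count of 2. The tests were checked on simulated data. Counts cannot separate PCR copies from molecules, so the limit for a count of 0 (3 counts) covers counting error only.

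The 10 genes and the gene and marker lists were chosen with earlier results of these data known. By rule, all 10 genes are named, with the 3 nearest genes of each and up to 3 genes per list and comparison by smallest p, plus Prox1. Counts of the 92 within-group pairs of libraries differed by more than counting noise (chi-square 11.1 to 169 per degree of freedom), so none was merged.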

Additional observations from a re-analysis of the deposited data

Results flagged for a closer look

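Libraries standing apart from their group were sought with Dixon's ratio on log2 CPM, over the 6 to 8 libraries of each group and both batches together, for each of the 10 genes. Chance gives about 1 in 20 such groups a library that stands apart, and 8 were found over 40 groups. No explanation was tested for any of them.

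Refed WT replicate 1 of batch 2 stood apart in 2 genes, with Nr0b2 low at 12.1 CPM (next lowest 33.1) and Abcb11 high at 420.2 CPM (next highest 337). Fasted WT replicate 3 of batch 2 stood apart in 2, with Nr1h4 low at 142 CPM (next lowest 155) and Abcb4 high at 534 CPM (next highest 462). Fasted K556R replicate 2 of batch 1 stood apart in 2 as well, with Slc10a1 high at 650.3 CPM (next highest 506) and Abcb4 low at 399 CPM (next lowest 455). Abcc3 stood at 115 CPM in refed K556R replicate 4 of batch 1, against 287 for the next lowest, and the same library held the highest Abcb11 (456 CPM) and Nr1h4 (221 CPM) of its group. Slc51b had 0 CPM in fasted K556R replicate 2 of batch 2 (0 counts), against 0.357 for the next lowest (10 counts).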

How the results depend on the processing

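Over 70 values (10 genes in 7 comparisons) and 37 alternatives each, 2513 of 2590 kept their direction and their side of the threshold, 52 lost a call, 25 gained one and 0 changed sign while called; 129 small values changed sign without a call in either. Of 10 genes, those called for refeeding in WT numbered 0, 1 (Abcb11) with separate group means per batch, and 0 to 3 with 1 library left out (3 without fasted WT batch 2 replicate 3, 2 without refed K556R batch 1 replicate 4). For refeeding in K556R they numbered 2, 0 in batch 2 alone (where 1925 genes in all were called), and 0 to 3 with 1 library left out (0 without fasted K556R batch 1 replicate 4). For refeeding averaged over genotypes they numbered 6, 4 with no low-count filter (Nr1h4 and Abcb4 lost), 2 in batch 2 alone (Abcc3 and Abcb4), and 4 to 7 with 1 library left out; batch 1 alone gave 4, with Nr0b2, Klb, Fgfr4 and Abcb11. Genotype comparisons gave 0 of the 10 under every alternative run.

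Over all genes, fasted genotype calls numbered 16, and 89 by DESeq2, 45 with no low-count filter, 33 in batch 1 alone, 0 in batch 2 alone, 44 with separate group means per batch, 51 without the 2 farthest libraries (an alternative chosen after seeing the data) and 2 to 46 with 1 library left out. Refed genotype calls numbered 0, and 44, 10, 5, 7, 2, 3 and 0 to 20 under the same alternatives in that order. In the mean of both states they numbered 194, and 426 by DESeq2, 125 in batch 1 alone, 0 in batch 2 alone, 292 with separate means and 116 to 309 with 1 library left out. The highest of these counts, 46, 20 and 309, came without refed K556R batch 1 replicate 4. Refeeding calls numbered 1667 in WT, 2397 in K556R and 4001 on average. In batch 1 alone they numbered 846, 1497 and 2652 in that order, and in batch 2 alone 592, 1925 and 2795. With 1 library left out they numbered 1322 to 1830 in WT, 2041 to 2523 in K556R and 3684 to 4141 on average. With no low-count filter the average gave 3426, and with separate group means per batch WT gave 1909. The cause of these shifts was not tested, though a batch alone has fewer libraries.

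Deviations from the group mean correlated at -0.39 to 0.36 (median -0.03) over the 40 pairs of same-numbered libraries of a batch, 5 of them over 0.1, so the numbers are not taken to pair livers. With a replicate block, 2 genes of the 10 were called in K556R refeeding and 5 on average (Abcb4 lost, adjusted p = 0.0542, edgeR), and 2 genes in all were called in the fasted genotype comparison and 92 in the mean. Depth limits Slc51b most, with at most 34 counts in a library.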

Other observations

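Results of the marker lists not given above were as follows, as counts of tested markers called by edgeR. For refeeding averaged over genotypes, where 25.6% of all genes were called, 0 of 10 macrophage, 0 of 6 endothelial, 0 of 6 lymphocyte and 0 of 1 adipocyte markers were called. There 1 of 8 stellate markers rose (Lrat, log2 0.36, SE 0.12), and 1 of 6 hepatocyte markers fell (Tat, -0.83, SE 0.19). In the K556R against WT mean of both states, 1 of 3 tested ileal markers was higher, Vil1, which had 165 counts over all libraries together, and 0 markers of the other 9 lists were called. Of all genes 1.24% were called in that comparison. Macrophage markers summed to 169 to 628 CPM in fasted WT, 154 to 516 in fasted K556R, 189 to 357 in refed WT and 246 to 417 in refed K556R livers. Though 0 were called, the 10 macrophage markers moved in 1 direction. Their median log2 difference was -0.16 for refeeding averaged over genotypes, with 0 of 10 positive. For K556R minus WT in the mean of both states it was 0.17, with 10 of 10 positive. The cause was not tested.

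Without the 2 libraries farthest from their own group and batch, refeeding averaged over genotypes called 7 of the 10 genes, and 4190 genes in all. Klb (0.29, SE 0.08, adjusted p = 0.00489) and Nr0b2 (0.50, SE 0.16, adjusted p = 0.0237) were added, and Abcb4 (-0.12, adjusted p = 0.111, edgeR) was lost. Those libraries were chosen by their distance over all genes, after the data had been seen.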
